A study of Homo sapiens with 84 samples.

Results

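The 9 genes described here encode proteins that switch off ERK signalling downstream of EGFR: the dual-specificity MAP kinase phosphatases DUSP1, DUSP4, DUSP5, and DUSP6, the Sprouty adaptors SPRY2 and SPRY4, the Sprouty-related proteins SPRED1 and SPRED2, and the EGFR kinase inhibitor ERRFI1, also known as MIG6. They were chosen by gene symbol, and they are 9 of the 58395 genes counted in the series. Their RNA was measured by 3′ RNA-seq (QuantSeq 3′ FWD) in serum-starved cells of 2 squamous carcinoma lines, Kyse30 from the esophagus and FaDu from the hypopharynx. Cells stayed untreated for 0, 6, or 72 h, or were kept for 6 or 72 h with the immunoglobulin Fc fragment alone, EpEX (the extracellular domain of EpCAM fused to Fc), EGFlow (1.8 nM EGF), EGFhigh (9 nM EGF), or EGFhigh together with EpEX. All 43 Kyse30 libraries were used, with 3 or 4 libraries in each of the 13 conditions. For FaDu, replicates 3 and 4 were used (20 libraries, 1 or 2 per condition), and FaDu replicates 1 and 2, in which levels scattered far more (DUSP6 from 2.35 to 630 CPM over 21 libraries), entered no main test. Each line is a single established culture, and nothing in the labels says that replicates came from separate cultures, so p-values measure the spread between these libraries, which may be technical.

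ERK is activated by phosphorylation, and feedback regulators are classical targets of the pathway that they restrain. DUSP4 and DUSP5 are nuclear phosphatases, DUSP6 is cytoplasmic and selective for ERK, and DUSP1 is a nuclear phosphatase that also acts on the stress kinases p38 and JNK. Sprouty and SPRED proteins act upstream, at the level of RAS and RAF, with SPRED proteins recruiting neurofibromin to the membrane. ERRFI1 acts at the top of the cascade by binding the kinase domain of EGFR. DUSP1 is also known as an immediate early gene that responds to serum and stress.

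Positions are from GRCh38 and GENCODE release 29. DUSP1 (ENSG00000120129) lies on the minus strand of chr5:172768090-172771195 and SPRY4 (ENSG00000187678) on the minus strand of chr5:142310427-142326455. DUSP5 (ENSG00000138166) lies at chr10:110497838-110511544 (plus strand) and DUSP6 (ENSG00000139318) at chr12:89347232-89353271 (minus strand). SPRY2 (ENSG00000136158) lies at chr13:80335976-80340951 (minus strand), SPRED1 (ENSG00000166068) at chr15:38252326-38357249 (plus strand), SPRED2 (ENSG00000198369) at chr2:65310851-65432637 (minus strand), and ERRFI1 (ENSG00000116285) at chr1:8004404-8026308 (minus strand). Exons of DUSP6 share 1789 bp with the antisense transcript AC024909.2, and exons of ERRFI1 share 155 bp with the antisense transcript AL034417.4. The strand setting of the counting is not stated in the sources used here, so reads of these 2 genes and of their antisense partners cannot be told apart. Antisense transcripts that overlap DUSP1 and SPRY4 share 0 exonic bases with them.

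Of the genes with a promoter entry, DUSP1 and SPRY4 had the most opposed profiles over the Kyse30 conditions (Pearson r = -0.66 over 13 group means), and the 250 bases before their transcription start sites are shown for that reason. They come from RefSeq (GRCh38.p14) and are written 5′ to 3′ on the minus strand. Capitals mark matches to the letters of the cAMP response element (TGACGTCA), its core (TGACG), and the TATA box (TATAAA) on either strand.
DUSP1, chr5:172771196-172771445: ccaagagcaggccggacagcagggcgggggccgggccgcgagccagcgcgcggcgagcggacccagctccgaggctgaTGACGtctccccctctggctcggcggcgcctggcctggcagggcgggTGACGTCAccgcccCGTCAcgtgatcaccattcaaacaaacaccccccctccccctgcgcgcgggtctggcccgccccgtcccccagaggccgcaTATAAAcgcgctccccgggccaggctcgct
SPRY4, chr5:142324248-142324497: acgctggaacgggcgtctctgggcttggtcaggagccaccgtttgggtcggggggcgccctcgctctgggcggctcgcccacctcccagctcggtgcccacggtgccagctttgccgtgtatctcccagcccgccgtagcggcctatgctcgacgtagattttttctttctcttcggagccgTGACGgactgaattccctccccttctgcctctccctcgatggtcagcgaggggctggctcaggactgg
The DUSP1 window held 1 full element, at -125 to -118 from the start site, and 4 cores, of which the pair at -125 to -121 and -122 to -118 lies inside that element. It also held a TATA box at -30 to -25. The SPRY4 window, which lies inside the annotated extent of the gene but in no exon, held 1 core, at -68 to -64, and no other match. Over all 35116 promoter windows of this length, 1.65% held the full element, 21.2% the core, and 10.7% the TATA box. RefSeq windows were matched for 7 of the 9 genes, and DUSP4 and DUSP5 had no entry. The core was found in 3 of the 7 (DUSP1, SPRY2, and SPRY4), and the full element in 1 (DUSP1). The AP-1 site TGAGTCA (4.2% of all windows), the ETS site CCGGAAGT (3.42%), and the CArG box (1.16%) were found in 0 of the 7. These matches are a description of letters, and binding was not measured.

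Libraries held 1944948 to 11759799 counts on genes in Kyse30 (median 6304338) and 6217938 to 12442349 in the FaDu replicates used (median 9259762). Levels are given as CPM (counts scaled to a common effective library size), which in 3′ RNA-seq do not depend on transcript length. A count of 3 corresponded to 0.255 to 1.54 CPM in Kyse30 and to 0.241 to 0.482 CPM in FaDu, which covers counting error only. The epithelial markers EPCAM and CDH1 were expressed in every library. The squamous keratins KRT5 and KRT14 were low in Kyse30 (medians of 2.10 and 0.688 CPM), whereas KRT5 had a median of 205 CPM in FaDu. Of 5 markers of other cell types, CD3E, PTPRC, and PECAM1 reached at most 1.68 CPM in any library, COL3A1 at most 2.51 CPM, and COL1A1 had medians of 14.1 CPM in Kyse30 and 8.71 CPM in FaDu.

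All 9 genes passed the filter on low counts in both lines, with 15350 genes tested in Kyse30 and 16022 in FaDu. In Kyse30, median levels over the 43 libraries were highest for DUSP6 (164 CPM, range 66.1 to 368), DUSP5 (123 CPM, 53.4 to 224), DUSP4 (120 CPM, 24.5 to 232), and ERRFI1 (87.3 CPM, 42.0 to 304). SPRY2 (26.7 CPM), DUSP1 (26.4 CPM), SPRED1 (17.6 CPM), SPRED2 (10.8 CPM), and SPRY4 (5.56 CPM) followed. SPRY4 was the scarcest, with 1 to 182 counts per library, so that its low values carry the largest counting error. In FaDu, the phosphatase DUSP6 (102 CPM), ERRFI1 (77.1 CPM), and DUSP5 (68.5 CPM) were again the most abundant, SPRED1 followed at 46.5 CPM, and SPRY2 and SPRY4 had 7.52 and 4.05 CPM. The range over libraries was widest for DUSP1 and SPRY4 in Kyse30 and narrowest for SPRED1 in FaDu (37.1 to 69.6 CPM). The plot of the Kyse30 libraries gives every value.

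**Figure D1:**
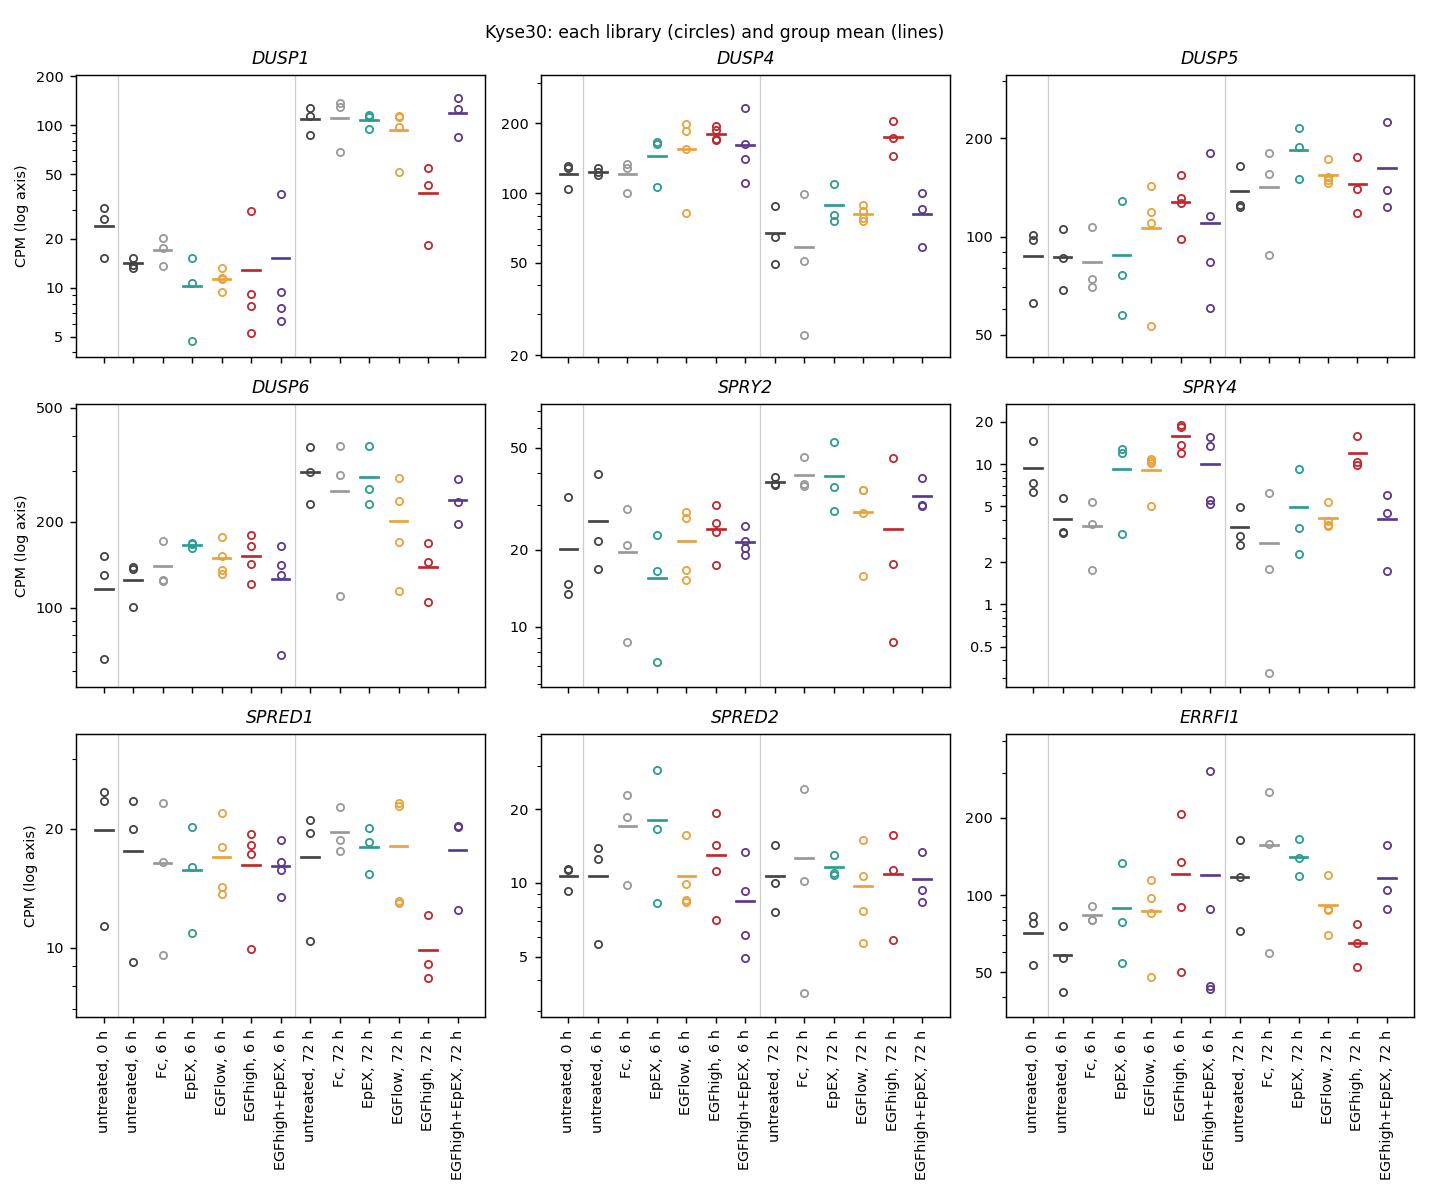
CPM of the 9 feedback regulators in Kyse30 by condition, on a log axis that differs between panels; circles are libraries (3 or 4 per condition) and lines are group means. DUSP1 sits between 4.68 and 38.0 CPM in all libraries at 0 and 6 h and at 51.2 CPM or above in all libraries at 72 h except 2 of the 3 EGFhigh libraries, whereas DUSP4 and SPRY4 sit above their untreated controls in all EGFhigh libraries at both times.

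DUSP1 and DUSP6 rose with time in untreated Kyse30 cells. DUSP1 had 13.9, 15.3, and 13.2 CPM at 6 h and 114, 86.8, and 127 CPM at 72 h. The 2 groups did not overlap, and DUSP1 rose 7.71-fold (log2FC 2.95 ± 0.50 SE, edgeR adjusted p = 0.000617). DUSP6, the cytoplasmic ERK phosphatase, had 137, 101, and 139 CPM at 6 h and 364, 231, and 299 CPM at 72 h, and rose 2.38-fold (log2FC 1.25 ± 0.32, adjusted p = 0.0301). DUSP4 had 120 to 128 CPM at 6 h and 49.3 to 88.3 CPM at 72 h without overlap, at a log2FC of -0.87 ± 0.30 (adjusted p = 0.149). Thus 2 of the 9 genes were called, both higher, against 1.55% of all genes tested (genes were called at a Benjamini-Hochberg adjusted p no higher than 0.05 with log2FC beyond 0.5 either way). The median log2FC of the 9 genes was 0.50, and that of all genes 0.02. ERRFI1 (log2FC 1.02), DUSP5 (0.66), and SPRY2 (0.50) had higher means at 72 h and adjusted p of 0.353, 0.357, and 0.668. SPRY4 (-0.19), SPRED1 (-0.04), and SPRED2 (0.00) had estimates near 0. In bulk RNA, a change in the amount per cell cannot be told apart from a change in which cells made up the culture.

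The rise of DUSP1 held in each of 6 fits that left out 1 library (log2FC 2.82 to 3.08). The call for DUSP6 was lost without untreated 6 h replicate 1 (log2FC 1.32, adjusted p = 0.0804), replicate 3 (1.11, 0.216), or replicate 4 (1.32, 0.0664), and without untreated 72 h replicate 1 (1.07, 0.159) or replicate 3 (1.24, 0.0769). From 0 to 6 h, 0 of the 9 genes and 0% of all genes were called in untreated Kyse30 by edgeR, and 0 by DESeq2. SPRY4 was the only one of the 9 with an unadjusted p under 0.05 there (14.5, 7.34, and 6.35 CPM at 0 h and 3.30, 5.76, and 3.23 CPM at 6 h). Of all 15350 genes tested, 355 had an unadjusted edgeR p under 0.05.

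At 6 h, no feedback regulator was called in Kyse30 under any treatment, and SPRY4 had the largest estimates. SPRY4, an adaptor that limits RAS activation, had 18.4, 11.9, 19.1, and 13.8 CPM with EGFhigh and 3.30, 5.76, and 3.23 CPM in untreated cells. All treated libraries lay above all controls, at a log2FC of 1.93 ± 0.57 (3.81-fold, adjusted p = 0.0581), and the call was made in 6 of 7 other settings, including DESeq2 (adjusted p = 0.0121), with adjusted p of 0.00259 to 0.0570 over the 7. With EGFlow, SPRY4 had 10.1, 5.01, 10.9, and 10.5 CPM (log2FC 1.14 ± 0.56, adjusted p = 0.359). With EpEX, it had 3.20, 12.8, and 11.9 CPM against 3.72, 5.35, and 1.77 CPM with Fc (log2FC 1.35 ± 0.61, adjusted p = 0.476). With EGFhigh plus EpEX, it had 15.7, 13.5, 5.24, and 5.56 CPM (log2FC 1.47 ± 0.58 against Fc, adjusted p = 0.133). The estimates were thus positive in all 4 comparisons, of which the EGF and the EpEX comparisons each share a control group.

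Of the phosphatases, DUSP4 had 187, 172, 169, and 195 CPM with EGFhigh at 6 h against 120, 123, and 128 CPM in untreated cells. The groups did not overlap, at a log2FC of 0.55 ± 0.28 and an adjusted p of 0.355. DUSP5 had 98.3 to 154 CPM against 68.5 to 106 CPM (log2FC 0.55 ± 0.30, adjusted p = 0.389), and DUSP6 121 to 179 CPM against 101 to 139 CPM (log2FC 0.27 ± 0.30, adjusted p = 0.740). DUSP1 had 5.27, 9.17, and 7.69 CPM in 3 EGFhigh libraries and 29.6 CPM in replicate 1, against 13.2 to 15.3 CPM. Its log2FC was -0.21 ± 0.46. The same replicate number was high with EGFhigh plus EpEX (38.0 CPM against 6.25 to 9.40 CPM in the other 3).

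ERRFI1, which binds and inhibits the EGFR kinase, had 207, 135, 89.7, and 50.0 CPM with EGFhigh at 6 h and 56.6, 42.0, and 75.9 CPM in untreated cells (log2FC 1.04 ± 0.46, adjusted p = 0.258). Replicate 1 was again the highest, as it was with EGFhigh plus EpEX, where ERRFI1 had 304, 87.9, 42.9, and 44.2 CPM. SPRY2 (log2FC -0.12), SPRED1 (-0.12), and SPRED2 (0.28) had estimates within 1 SE of 0. The 95% interval for SPRED1 ran from -0.79 to 0.56, so that changes of either sign within these bounds are compatible with these libraries.

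By edgeR, the 9 genes gave 0 calls with EGFlow (1.5% of all genes called), EGFhigh (2.55%), EpEX (0.0261%), and EGFhigh plus EpEX (4.52%) at 6 h. The numbers with an unadjusted p under 0.05 were 1, 2, 1, and 2, and DESeq2 called 0, 1, 0, and 0. Of all 15350 genes tested, 2100, 2338, 1451, and 2942 had an unadjusted edgeR p under 0.05. Medians of the 9 log2FC values were 0.25, 0.28, 0.10, and 0.13, against -0.04, -0.05, -0.01, and -0.01 over all genes tested. For EGFhigh over EGFlow at 6 h, the median log2FC was 0.22 for the 9 genes and -0.003 for all genes. The largest of the 9 was 0.79 ± 0.50 for SPRY4. EGFhigh did not call any gene against EGFlow at 6 h (0%). Nor were genes called between EGFhigh plus EpEX and EGFhigh (0%), between Fc and untreated cells at 6 h or 72 h (0% each), or in the test of whether EpEX and EGFhigh differed in effect at 6 h (0%). In each of these, 0 of the 9 genes had an unadjusted p under 0.05 and DESeq2 called 0. Over the 9 Kyse30 comparisons in which edgeR called 0% of all genes, 355 to 601 genes had an unadjusted p under 0.05, and DESeq2 called 0 to 2. For SPRY4, the EpEX effect minus the EGFhigh effect was -0.58 with a 95% interval from -2.23 to 1.07, so that these data place no narrow bound on it.

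At 72 h, EGFhigh moved the phosphatases of Kyse30 in opposite directions. DUSP4 (ENSG00000120875, chr8:29333064-29350668, minus strand), a nuclear ERK phosphatase, had 145, 174, and 204 CPM with EGFhigh and 88.3, 64.9, and 49.3 CPM in untreated cells. It rose 2.57-fold (log2FC 1.36 ± 0.31, adjusted p = 0.00335), and each treated library lay above each control. DUSP1 had 18.4, 54.2, and 42.8 CPM with EGFhigh and 114, 86.8, and 127 CPM in untreated cells. It was 2.85-fold lower (log2FC -1.51 ± 0.47, adjusted p = 0.0420), again without overlap. DUSP6 had 105, 144, and 169 CPM against 364, 231, and 299 CPM, and was 2.14-fold lower (log2FC -1.10 ± 0.32, adjusted p = 0.0281). The mean of DUSP6 with EGFhigh at 72 h was 139 ± 32.6 CPM, against 125 ± 21.4 CPM in untreated cells at 6 h (SD, n = 3 each), and that of DUSP1 was 38.5 ± 18.3 CPM against 14.1 ± 1.10 CPM. DUSP5, the remaining phosphatase, had 175, 140, and 118 CPM against 164, 123, and 125 CPM (log2FC 0.07 ± 0.32).

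SPRY4 had 16.0, 9.81, and 10.4 CPM with EGFhigh at 72 h and 4.93, 2.67, and 3.07 CPM in untreated cells. The groups did not overlap, and the log2FC was 1.74 ± 0.60 (adjusted p = 0.0746). It was called in 4 of 7 other settings, with adjusted p of 0.00539 to 0.0735 over the 7. SPRED1, which brings neurofibromin to RAS, had 9.10, 8.38, and 12.1 CPM against 19.4, 21.0, and 10.4 CPM (log2FC -0.78 ± 0.36, adjusted p = 0.215). ERRFI1 had 52.4, 77.2, and 65.1 CPM against 164, 117, and 72.2 CPM (log2FC -0.87 ± 0.49, adjusted p = 0.334). SPRY2 had 8.75, 17.7, and 45.8 CPM against 35.8 to 38.5 CPM (log2FC -0.61 ± 0.42, adjusted p = 0.448), and without EGFhigh replicate 4 its estimate was -1.48 (adjusted p = 0.0418). SPRED2 had 5.83, 15.7, and 11.3 CPM against 7.63 to 14.3 CPM (log2FC 0.04 ± 0.49).

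With EGFhigh at 72 h, 3 of the 9 genes were called, 1 higher and 2 lower, against 6.2% of all genes. The median log2FC was -0.61 over the 9 genes and -0.03 over all genes. DUSP4 kept its call in each of 6 fits that left out 1 library (log2FC 1.19 to 1.62). The DUSP1 call was lost without EGFhigh replicate 1 (log2FC -1.16, adjusted p = 0.217) or replicate 4 (-1.59, 0.0827) and without untreated replicate 1 (-1.47, 0.0976), replicate 2 (-1.64, 0.0666), or replicate 3 (-1.38, 0.131), and by DESeq2 its adjusted p was 0.0523. The DUSP6 call was lost without EGFhigh replicate 1 (-0.92, 0.153) or replicate 3 (-1.12, 0.0742) and without untreated replicate 1 (-0.92, 0.140) or replicate 3 (-1.09, 0.0737).

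**Figure D2:**
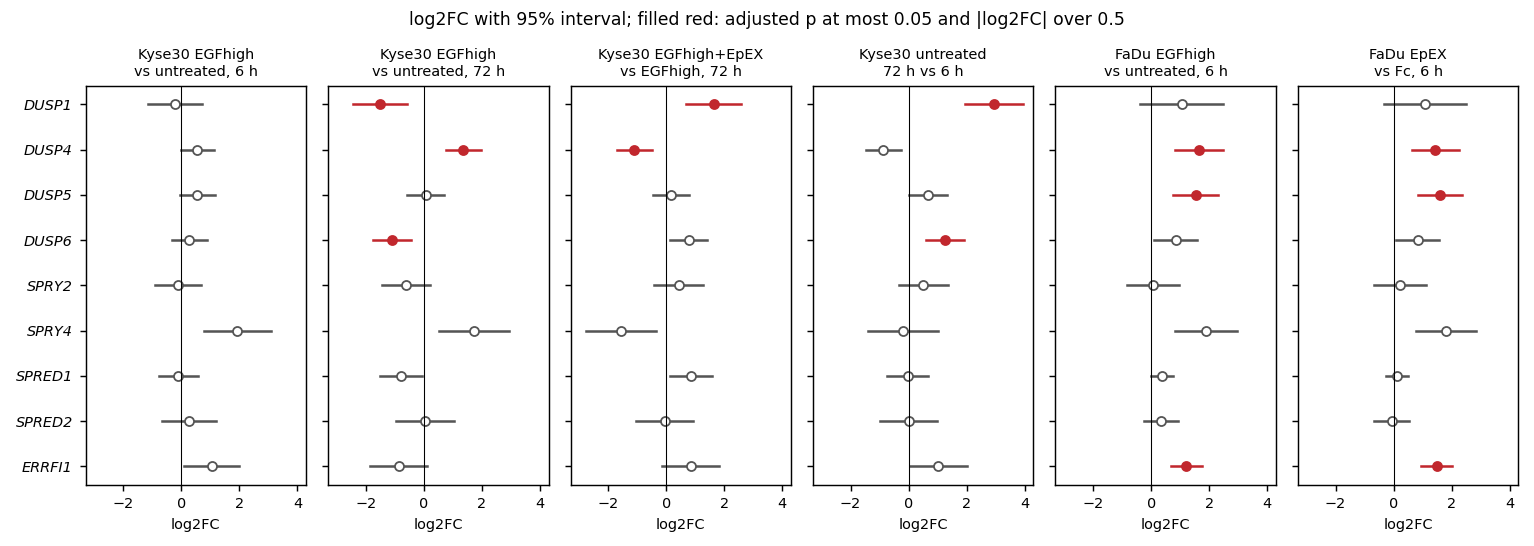
log2FC (x axis) of the 9 genes in 6 comparisons, with 95% intervals as lines and genes called by edgeR in filled red. In Kyse30, DUSP1 and DUSP4 lie on opposite sides of 0 with EGFhigh against untreated cells at 72 h (-1.51 and 1.36). For EGFhigh plus EpEX against EGFhigh alone, the values are 1.63 and -1.10. Both comparisons use the same EGFhigh libraries, on opposite sides, so the opposite signs are partly built in. In FaDu at 6 h, DUSP4, DUSP5, and ERRFI1 are called higher with EGFhigh and with EpEX.

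At 72 h, genes among the 9 were called against untreated cells with EGFhigh and not with EGFlow, but a difference between the doses was called for DUSP4 only. With EGFlow at 72 h, edgeR called 0 of the 9 genes and 0% of all genes against untreated cells, 0 of the 9 had an unadjusted p under 0.05, and DESeq2 called 0. DUSP4 had 76.0, 84.2, 77.9, and 88.6 CPM with EGFlow, all below the 145 to 204 CPM with EGFhigh, and was higher with EGFhigh by a log2FC of 1.09 ± 0.28 (adjusted p = 0.0155). That call, 1 of the 9 genes against 3.73% of all genes, was lost without EGFhigh replicate 4 (0.97, adjusted p = 0.0782). SPRY4 had 3.61, 3.94, 5.36, and 3.70 CPM with EGFlow, also below each EGFhigh library (log2FC 1.55 ± 0.54, adjusted p = 0.107). DUSP1 had 97.2, 113, 114, and 51.2 CPM with EGFlow. The last of these lay within the EGFhigh range, and the log2FC of EGFhigh over EGFlow was -1.29 ± 0.44 (adjusted p = 0.100). DUSP6 had a mean of 202 CPM with EGFlow against 298 CPM in untreated cells (log2FC -0.57 ± 0.29, not called). Its log2FC of EGFhigh over EGFlow was -0.53 ± 0.30 (adjusted p = 0.403). SPRED1 lay lower with EGFhigh without overlap (8.38 to 12.1 CPM against 12.98 to 23.2 CPM), at a log2FC of -0.88 ± 0.34 and an adjusted p of 0.161. The median log2FC of EGFhigh over EGFlow was -0.22 for the 9 genes and -0.04 for all genes.

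When EpEX was given together with EGFhigh for 72 h, DUSP1 and DUSP4 differed from EGFhigh alone in the opposite sense. DUSP1 had 126, 146, and 84.1 CPM with EGFhigh plus EpEX against 18.4, 54.2, and 42.8 CPM with EGFhigh, and was 3.10-fold higher (log2FC 1.63 ± 0.47, adjusted p = 0.0388). DUSP4 had 99.7, 85.6, and 58.7 CPM against 145, 174, and 204 CPM, and was 2.14-fold lower (log2FC -1.10 ± 0.30, adjusted p = 0.0299). For both genes the 2 groups did not overlap. DUSP6 had 235, 282, and 196 CPM against 105 to 169 CPM (log2FC 0.77 ± 0.32, adjusted p = 0.193), and SPRED1 20.3, 12.4, and 20.2 CPM against 8.38 to 12.1 CPM (0.84 ± 0.36, adjusted p = 0.221). SPRY4 had 1.72, 4.50, and 6.04 CPM against 9.81 to 16.0 CPM (-1.57 ± 0.60, adjusted p = 0.146), and ERRFI1 157, 105, and 88.6 CPM against 52.4 to 77.2 CPM (0.85 ± 0.49, adjusted p = 0.400).

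Thus 2 of the 9 genes were called between EGFhigh plus EpEX and EGFhigh at 72 h, against 3.58% of all genes. The medians were 0.44 for the 9 genes and 0.03 for all genes. This comparison, the one against EGFlow, and the one against untreated cells share the 3 EGFhigh libraries, so that their estimates are not independent. The DUSP1 call was lost without EGFhigh replicate 1 (log2FC 1.29, adjusted p = 0.221) or replicate 4 (1.72, 0.0763) and without EGFhigh plus EpEX replicate 1 (1.58, 0.0899) or replicate 2 (1.46, 0.183). The DUSP4 call was lost without EGFhigh replicate 3 (-1.10, 0.0632) or replicate 4 (-0.97, 0.105) and without EGFhigh plus EpEX replicate 2 (-1.14, 0.109) or replicate 3 (-0.91, 0.162). Fitting only these 2 groups gave an adjusted p of 0.0533 for DUSP1 and 0.0546 for DUSP4.

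Against Fc at 72 h, EGFhigh plus EpEX and EpEX alone gave 0 calls among the 9 genes and 0% among all genes by edgeR, and 0 of the 9 had an unadjusted p under 0.05 in either comparison. DESeq2 called 0 of the 9 in both. DUSP4 had an estimate of 0.46 with a 95% interval from -0.15 to 1.07 for EGFhigh plus EpEX, and 0.58 with an interval from -0.03 to 1.20 for EpEX. Fc replicate 3 was among the shallow libraries (3262475 counts) and was the lowest of its group for 7 of the 9 genes, with 68.0 CPM for DUSP1 against 136 and 129 CPM, 24.5 CPM for DUSP4 against 99.6 and 50.9 CPM, and 1 count for SPRY4. Its part in these comparisons was not tested beyond leaving it out, which gave 0 calls as well.

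Whether the response to EGFhigh differed between 72 and 6 h was tested directly. The difference was -1.91 ± 0.67 for ERRFI1 (adjusted p = 0.172), -1.37 ± 0.44 for DUSP6 (adjusted p = 0.126), -1.30 ± 0.66 for DUSP1 (adjusted p = 0.376), and 0.82 ± 0.41 for DUSP4 (adjusted p = 0.369). By edgeR, 0 of the 9 genes were called against 1.01% of all genes, 2 (ERRFI1 and DUSP6) had an unadjusted p under 0.05, and DESeq2 called 0. Of all 15350 genes tested, 2107 had an unadjusted edgeR p under 0.05. For SPRY4 the difference was -0.19 with a 95% interval from -1.82 to 1.43. The median was -0.50 for the 9 genes and 0.01 for all genes. The map of group means shows the levels behind these differences.

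**Figure D3:**
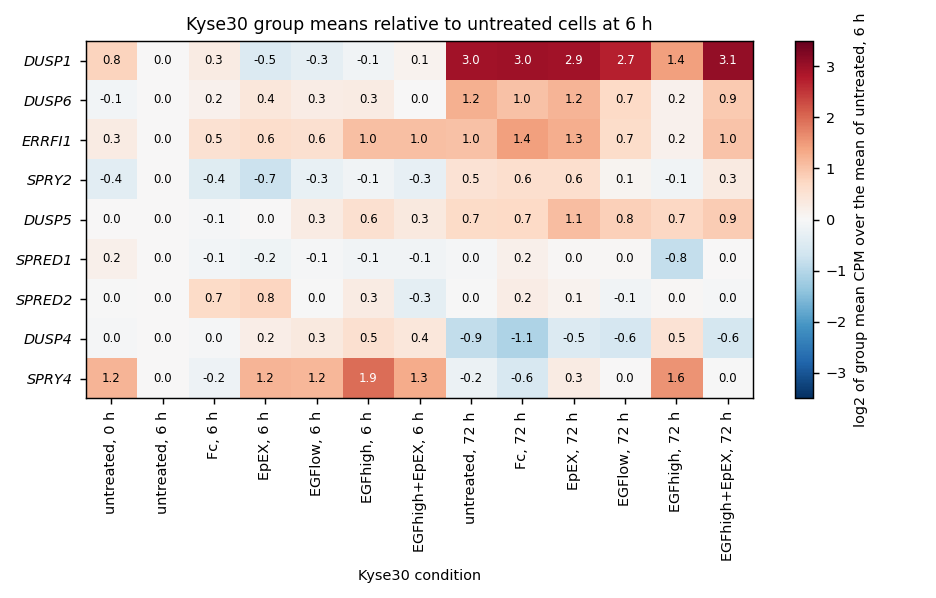
Group means of the 9 genes (rows) in the 13 Kyse30 conditions (columns), as log2 of the mean CPM over the mean of untreated cells at 6 h; red is higher and blue lower, and n is 3 or 4 libraries per group. DUSP1 is 3.0 in untreated cells and 1.4 with EGFhigh at 72 h, whereas DUSP4 is -0.9 and 0.5 and SPRY4 -0.2 and 1.6.

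Across the 13 Kyse30 group means on the log2 CPM scale, 2 subsets of the 9 genes went together. DUSP4 and SPRY4 went together (Pearson r = 0.89), and DUSP1, DUSP5, DUSP6, SPRY2, and ERRFI1 had r between 0.62 and 0.83 with one another. DUSP4 and DUSP1 had r = -0.85, DUSP4 and SPRY2 r = -0.79, and DUSP4 and DUSP6 r = -0.76. SPRED1 had r between -0.57 and 0.48 with the other 8, and SPRED2 between -0.46 and 0.20. These are descriptions over 13 means, of which 6 come from 72 h, so that time in culture enters every value. Among 10233 other genes with a mean of at least 5 CPM, the profiles closest to DUSP1 were those of FOSB (r = 0.99) and NR4A2 (r = 0.98), both immediate early transcription factors, and of MIR23AHG (r = 0.98). Among the closest to DUSP4 were PADI1 (r = 0.96) and SHQ1 (r = 0.96), and among the closest to SPRY4 were POLR3D (r = 0.95) and PDCD10 (r = 0.93). Closest to DUSP6 were LAMP2 (r = 0.93), EGFR (r = 0.93), and ERAP1 (r = 0.92), and to DUSP5 TAPBP (r = 0.96), IER2 (r = 0.95), and MIR210HG (r = 0.95). Closest to SPRY2 were KLF12, ZDHHC8BP, and SAMD5 (r = 0.94, 0.94, and 0.93), to SPRED1 PRICKLE1, NUP43, and MCM3 (r = 0.95, 0.93, and 0.93), to SPRED2 LACTB2, MAGEA3, and TDP2 (r = 0.92, 0.91, and 0.90), and to ERRFI1 RNF217, C1orf21, and KDM6B (r = 0.88 for each).

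In FaDu cells, DUSP4, DUSP5, and ERRFI1 rose within 6 h with EGFlow, EGFhigh, and EpEX. DUSP4 had 17.8 and 23.3 CPM in untreated cells and 47.6 and 94.3 CPM with EGFlow (log2FC 1.79 ± 0.39, adjusted p = 0.0132) and 41.1 and 88.2 CPM with EGFhigh (1.65 ± 0.39, adjusted p = 0.0234). With EpEX it had 50.1 and 73.8 CPM against 14.8 and 30.8 CPM with Fc (1.44 ± 0.38, adjusted p = 0.0464). In each case both treated libraries lay above both controls.

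DUSP5, a nuclear phosphatase selective for ERK, had 45.9 and 74.1 CPM in untreated cells, 138 and 198 CPM with EGFlow (log2FC 1.48 ± 0.37, adjusted p = 0.0288), and 131 and 217 CPM with EGFhigh (1.54 ± 0.37, adjusted p = 0.0254). With EpEX it had 144 and 195 CPM against 44.4 and 67.5 CPM with Fc (1.60 ± 0.37, adjusted p = 0.0188). ERRFI1 had 79.7 and 74.5 CPM in untreated cells, 174 and 193 CPM with EGFlow (1.25 ± 0.25, adjusted p = 0.00866), and 144 and 213 CPM with EGFhigh (1.21 ± 0.25, adjusted p = 0.0110). With EpEX it had 164 and 247 CPM against 91.5 and 55.5 CPM with Fc (1.48 ± 0.26, adjusted p = 0.00199). The increases of the 3 genes ranged from 2.31- to 3.45-fold, and no treated library of any of them overlapped with its controls. With 2 libraries against 2, such separation is frequent by chance, and the share over all genes was not computed. SPRED1 with EGFlow and EGFhigh and DUSP6 with EGFlow also lay above their controls without overlap and were not called.

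SPRY4 had 1.97 and 2.61 CPM in untreated FaDu cells and 8.09 and 8.92 CPM with EGFhigh at 6 h (log2FC 1.89 ± 0.51, adjusted p = 0.0511). It had 9.46 and 10.5 CPM with EpEX against 1.99 and 3.65 CPM with Fc (1.81 ± 0.50, adjusted p = 0.0537). DESeq2 called both (adjusted p = 0.0317 and 0.0299). With EGFlow SPRY4 had 2.82 and 6.89 CPM (1.08 ± 0.51, adjusted p = 0.325). DUSP6 had 91.0 and 61.1 CPM in untreated cells, 99.5 and 154 CPM with EGFlow, and 87.9 and 186 CPM with EGFhigh, with log2FC values of 0.74 and 0.85 (adjusted p = 0.340 and 0.272). With EpEX it had 105 and 202 CPM against 110 and 62.2 CPM (0.84, adjusted p = 0.280), so that the groups overlapped. DUSP1 differed between replicates more than between treatments, with 14.2 and 39.1 CPM in untreated cells and 18.1 and 92.4 CPM with EGFhigh (1.05 ± 0.68, adjusted p = 0.515). SPRY2, SPRED1, and SPRED2 had log2FC values between -0.37 and 0.37 in the 3 comparisons.

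**Figure D4:**
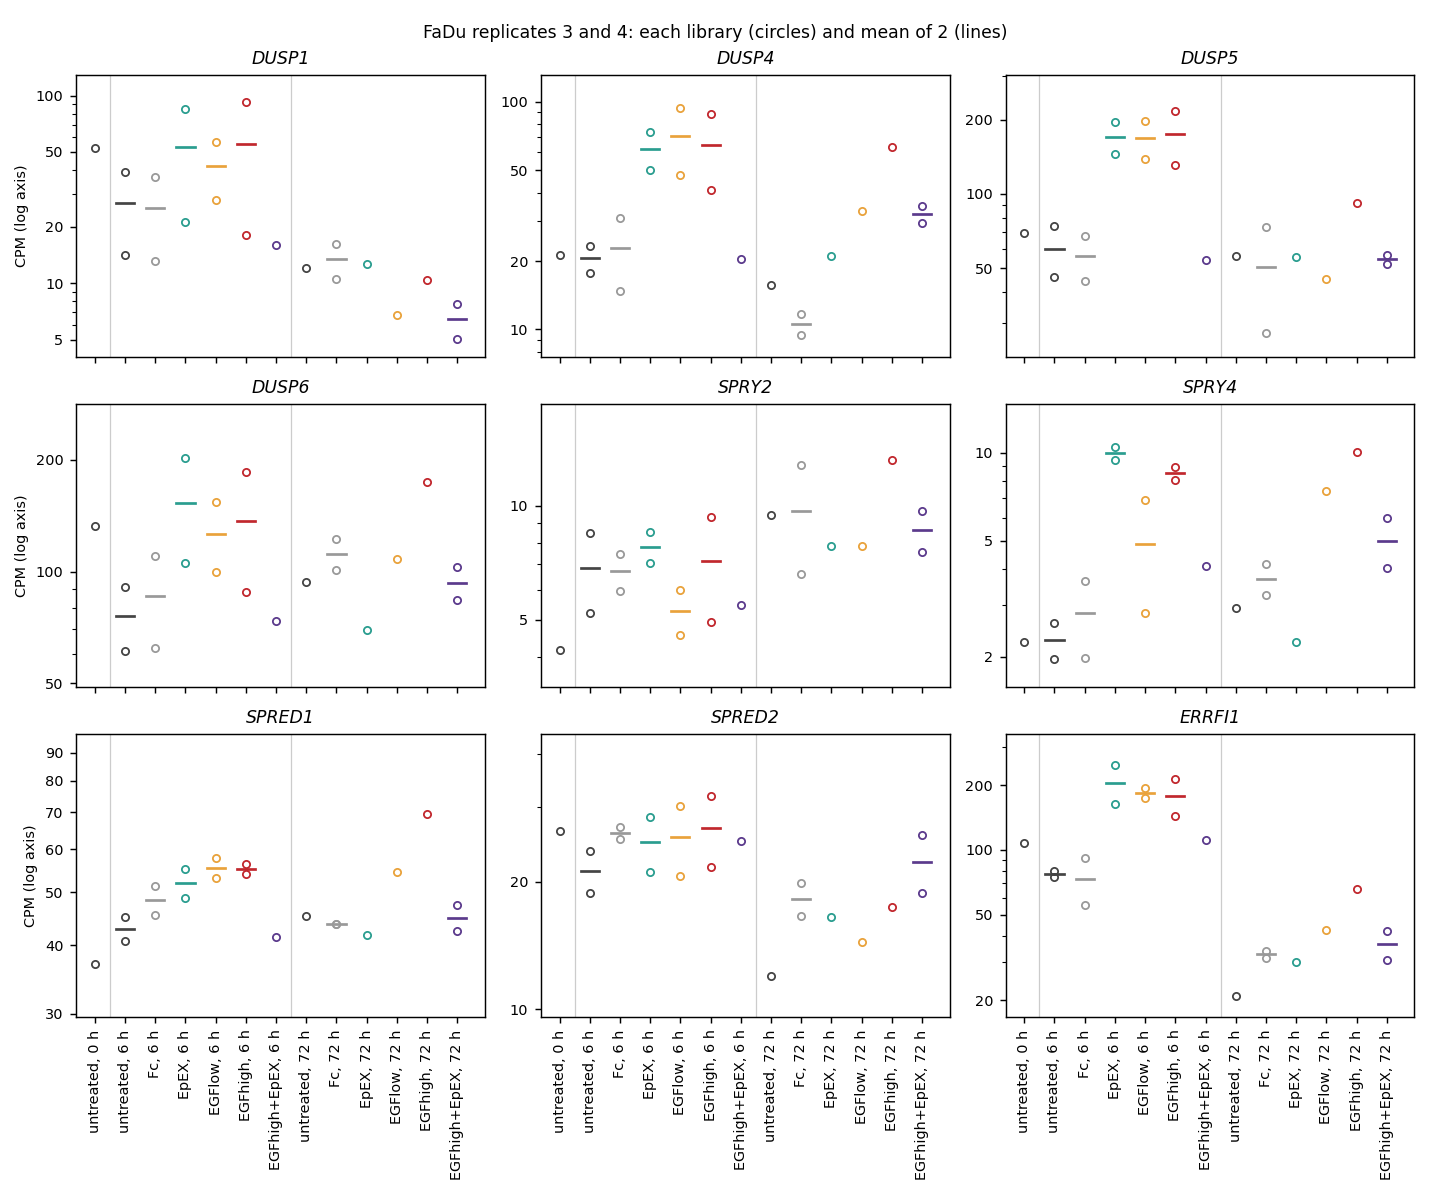
CPM of the 9 feedback regulators in FaDu replicates 3 and 4 by condition, on a log axis that differs between panels; circles are libraries (1 or 2 per condition) and lines are means of 2. At 6 h, DUSP4, DUSP5, SPRY4, and ERRFI1 are higher in both libraries with EGFlow, EGFhigh, or EpEX than in both of their own controls. The same holds for SPRED1 with EGFlow and EGFhigh and for DUSP6 with EGFlow. edgeR did not call SPRY4, SPRED1, or DUSP6 in these comparisons. With 2 libraries against 2, such separation is frequent by chance, and the share over all genes was not computed. The single EGFhigh plus EpEX library is closer to the controls for DUSP4 and DUSP5.

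In each of the 3 FaDu comparisons at 6 h, 3 of the 9 genes were called, all higher, against 3.45% of all genes with EGFlow, 3.06% with EGFhigh, and 3.5% with EpEX. The medians of the 9 log2FC values were 0.74, 1.05, and 1.08, against -0.02, -0.01, and -0.01 over all genes. EGFlow and EGFhigh share their untreated controls. Between EGFhigh and EGFlow, between Fc and untreated cells, and between the EpEX effect and the EGFhigh effect, edgeR called 0 of the 9 genes and 0% of all genes, 0 of the 9 had an unadjusted p under 0.05, and DESeq2 called 0. Over all genes, 275 to 452 had an unadjusted p under 0.05 in these 3 comparisons, and DESeq2 called 0. For DUSP4 the 95% interval of EGFhigh minus EGFlow ran from -0.92 to 0.64, and for ERRFI1 that of the EpEX effect minus the EGFhigh effect ran from -0.47 to 1.02.

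With 2 libraries per group, most of these calls depended on single libraries, and a group left with 1 library is assumed to vary like the others. With EGFlow, the calls of DUSP4, DUSP5, and ERRFI1 were lost without untreated replicate 3 (log2FC 1.60, 1.18, and 1.30), untreated replicate 4 (2.0, 1.87, and 1.20), or EGFlow replicate 4 (1.21, 1.19, and 1.16). With EGFhigh they were lost without untreated replicate 3 (1.46, 1.23, and 1.26), untreated replicate 4 (1.86, 1.92, and 1.16), or EGFhigh replicate 4 (1.00, 1.12, and 0.91). With EpEX the calls of DUSP4 and DUSP5 were lost without Fc replicate 3 (1.01 and 1.33) or EpEX replicate 4 (1.13 and 1.37), and ERRFI1 kept its call in each of 4 fits. The DUSP4 call with EpEX also ended when genes with a mean under 5 CPM were left out (adjusted p = 0.0611) and when only the groups compared were fitted (0.0777). When all 41 FaDu libraries were fitted together, 0 of the 9 genes were called in any of the 3 comparisons, and DUSP4 with EpEX had a log2FC of -0.94 ± 1.02.

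The single FaDu library of EGFhigh plus EpEX at 6 h (replicate 3) had 20.4 CPM for DUSP4 and 54.2 CPM for DUSP5. These were near the 14.8 and 44.4 CPM of Fc replicate 3. SPRY4 had 4.08 CPM there, between the 1.99 CPM of Fc replicate 3 and the mean of 8.51 CPM with EGFhigh. ERRFI1 had 111 CPM there, against 91.5 CPM with Fc and 144 CPM with EGFhigh in the same replicate number. These values have no replicate check.

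At 72 h, EGFhigh plus EpEX was compared with Fc in FaDu. DUSP4 had 29.3 and 34.9 CPM against 9.44 and 11.7 CPM, at a log2FC of 1.60 ± 0.40 and an adjusted p of 0.0815, and DESeq2 called it (adjusted p = 0.00810). By edgeR, 0 of the 9 genes were called against 0.818% of all genes, and DUSP4 was the only one of the 9 with an unadjusted p under 0.05. Of all 16022 genes tested, 1086 had an unadjusted edgeR p under 0.05. DUSP5, DUSP6, SPRY2, SPRY4, SPRED1, SPRED2, and ERRFI1 had log2FC values between -0.26 and 0.43, and DUSP1 had 5.03 and 7.76 CPM against 10.5 and 16.3 CPM (-1.05 ± 0.74, adjusted p = 0.956). The medians were 0.10 for the 9 genes and -0.01 for all genes. The other treatments had 1 library each at 72 h and no test. DUSP4 had 63.7 CPM with EGFhigh and 15.8 CPM in untreated cells, SPRY4 10.1 and 2.94 CPM, DUSP6 174 and 93.6 CPM, and ERRFI1 65.8 and 21.0 CPM. DUSP1 had 10.4 and 12.02 CPM in the same libraries. With EpEX, DUSP4 had 21.0 CPM and SPRY4 2.24 CPM.

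ERRFI1 differed between 6 and 72 h in the FaDu libraries with Fc. With Fc it had 91.5 and 55.5 CPM at 6 h and 31.6 and 33.8 CPM at 72 h, and was lower at 72 h by a log2FC of 1.17 (-1.17 ± 0.26, adjusted p = 0.0174). This was 1 of the 9 genes against 2.88% of all genes. DUSP4 had 14.8 and 30.8 CPM at 6 h and 9.44 and 11.7 CPM at 72 h (-1.11 ± 0.40, adjusted p = 0.174), and DUSP6 110 and 62.2 CPM against 123 and 101 CPM (0.38 ± 0.35). The median log2FC was -0.15 for the 9 genes and 0.03 for all genes. The ERRFI1 call was lost without Fc 6 h replicate 3 (-0.76, adjusted p = 0.293), Fc 72 h replicate 3 (-1.12, 0.152), or Fc 72 h replicate 4 (-1.22, 0.135). In the fit of all 41 FaDu libraries the estimate was 0.43 ± 0.95.

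The responses of the 2 lines at 6 h were compared in 1 fit over 63 libraries. The response of DUSP4 was larger in FaDu by a log2FC of 1.44 ± 0.49 with EGFlow (adjusted p = 0.582), 1.08 ± 0.49 with EGFhigh, and 1.16 ± 0.51 with EpEX (adjusted p = 0.840). For DUSP5 the difference was 1.17 ± 0.51, 0.96 ± 0.51, and 1.51 ± 0.52 (adjusted p = 0.546 for EpEX). For SPRY4 it was -0.08 ± 0.91, -0.07 ± 0.92, and 0.44 ± 0.90. edgeR called 0 of the 9 genes in any of the 3 tests, against 0.112% of all genes for EGFlow, 0.0611% for EGFhigh, and 0.127% for EpEX. The numbers of the 9 with an unadjusted p under 0.05 were 2, 1, and 3, and DESeq2 called 0 in each. Of all 19634 genes tested, 1048, 965, and 1096 had an unadjusted edgeR p under 0.05. That DUSP4, DUSP5, and ERRFI1 were called in FaDu and not in Kyse30 at 6 h does not therefore show that the lines differed. The medians of the 9 differences were 0.46, 0.44, and 0.57, against 0.00 over all genes.

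Other genes of the pathway, in lists made with earlier results of these data known, put these values in context. Of 10 further feedback regulators, of which 9 passed the filter in Kyse30 (6 DUSP genes, SPRY1, SPRY3, SPRED3, and LRIG1), 1 was called lower in FaDu at 6 h with EGFlow and with EGFhigh, the adaptor SPRY1 (log2FC -2.81 and -2.08), and 1 in Kyse30 with EGFhigh plus EpEX at 6 h, DUSP16 (-1.26). Of 5 EGFR ligands, 3 were called higher in Kyse30 with EGFhigh at 6 h: HBEGF (2.43), AREG (2.16), and EREG (1.28). In FaDu at 6 h the same 3 of the 4 ligands tested were called higher with EGFlow and with EGFhigh, and with EpEX all 4 were, with log2FC values of 4.54 for AREG, 4.42 for EREG, 3.74 for HBEGF, and 1.33 for TGFA. At 72 h in Kyse30 with EGFhigh, 2 of 5 ligands were called higher, AREG (1.93) and TGFA (1.79).

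Of 22 components of the cascade from receptor to ERK, 3 were called higher in Kyse30 with EGFhigh at 72 h, MAP2K2 (0.86), SHC1 (0.76), and MAPK3 (0.66), and 1 lower, EGFR itself (-1.03, from 4100 ± 561 CPM in untreated cells to 2003 ± 314 CPM, SD, n = 3 each). EGFR was also called higher at 72 h than at 6 h in untreated Kyse30 (1.37). With EGFhigh at 6 h, 1 component was called, ERBB3 (-1.21). In FaDu at 6 h, EGFR was called higher with EGFlow (0.66) and with EpEX (0.68), as was CBL with EpEX (0.88), and 0 of 22 components were called by edgeR with EGFhigh.

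Of 10 ERK target genes, 1 was called in Kyse30 with EGFhigh at 6 h, the immediate early factor EGR1, which was lower (-1.19). At 72 h, 2 were called higher with EGFhigh, IER3 (1.92) and PHLDA1 (1.19), and 1 lower, the AP-1 subunit FOS (-2.66). FOS was called higher at 72 h than at 6 h in untreated cells (2.45). With EGFhigh plus EpEX against EGFhigh at 72 h, FOS (2.56) and EGR1 (1.22) were called higher and IER3 (-1.77) lower. In FaDu at 6 h, 4 targets were called higher with EGFhigh: FOSL1 (2.29), EPHA2 (2.25), PHLDA1 (1.82), and IER3 (1.44). With EGFlow 4 were also called higher, among them FOSL1 (2.31), EPHA2 (1.94), and PHLDA1 (1.88), and 1 lower, FOS (-2.08). With EpEX in FaDu at 6 h, 3 targets were called higher: FOSL1 (2.46), PHLDA1 (2.18), and IER3 (1.67). With EGFhigh plus EpEX in FaDu at 72 h, 2 of the 10 targets were called higher and 1 lower, FOS (-2.47). Of the 4 ligands tested there, 1 was called higher, TGFA, and 0 lower.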

How the data were processed

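RNA of 84 samples was sequenced from the 3′ end (QuantSeq 3′ FWD). Per the labels, the authors aligned reads to GRCh38 (hg38) with STAR and counted them per gene with HTSeq, and the versions, the strand setting, and any use of molecular identifiers are not given in the sources used here, so count floors cover counting error only. The deposited values are raw counts per gene for 58395 genes, and the 5 tallies of uncounted reads were left out. Identifiers were matched to symbols for 41885 genes. The 9 members, the pathway lists, and the tests were chosen with earlier results of these data known. Genes were filtered with filterByExpr (minimum count 10, minimum total 15), scaled by TMM, and tested with the quasi-likelihood F-test of edgeR 4.0.16 in R 4.3.3, in 1 fit per line (43 Kyse30 libraries, 20 FaDu libraries) and 1 over both (63 libraries). The control was untreated cells for EGF and Fc for EpEX, at the matching time. P-values were adjusted by Benjamini-Hochberg over all genes tested, and genes were called at an adjusted p no higher than 0.05 with log2FC beyond 0.5 either way. SE is the absolute log2FC over the square root of F. Alternatives were DESeq2 1.42.0, RLE size factors, other filters, a replicate block, pooled controls, only the groups compared, all FaDu libraries, and leaving out each library. Scripts were tested on simulated data. From each pathway list, at most 4 called genes with the largest absolute log2FC were named per comparison, and for each member the 3 genes most correlated over the 13 Kyse30 group means, among those with a mean of at least 5 CPM. Part of the outcome of that rule is not reported here. The EGFR group means were added after its values were seen.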

Additional observations from a re-analysis of the deposited data

Results flagged for a closer look

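The 9 genes were each examined in the 4 Kyse30 groups of 4 libraries, which gives 36 examinations of the same 16 libraries. In 3 of them 1 library lay far from the other 3, and chance alone gives about 1 in 20. DUSP1 had 29.6 CPM in EGFhigh 6 h replicate 1 and 38.0 CPM in EGFhigh plus EpEX 6 h replicate 1, both above the other libraries of their group. EGFhigh 6 h replicate 1 was among the shallow libraries (2769098 counts). SPRY4 had 5.01 CPM in EGFlow 6 h replicate 2, below the 10.1 to 10.9 CPM of the other 3.

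In FaDu replicates 1 and 2, which entered no main test, the 9 genes were examined in 4 treatments with 2 libraries and 2 controls. In 3 of these 36 cases both treated libraries lay above both controls, and in 2, 5, 3, and 1 cases (EGFhigh and EGFhigh plus EpEX at 6 h, EGFhigh and EGFlow at 72 h) both lay below them. With 2 libraries against 2, such separation is frequent by chance, and the share over all genes was not computed. These counts are therefore no result about the 9 genes. DUSP1 had a mean of 35.3 CPM with EGFlow and 45.2 CPM with EGFhigh at 72 h, against 3.05 and 16.3 CPM in the untreated libraries. DUSP4 had a mean of 229 CPM with EGFhigh at 6 h, against 36.1 and 48.0 CPM in the untreated libraries. ERRFI1 had 9.43 and 14.1 CPM with EGFhigh at 6 h, against 26.6 and 43.5 CPM in the untreated libraries, the opposite direction to replicates 3 and 4. Levels in these 21 libraries ranged from 3.20 to 251 CPM for DUSP4.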

How the results depend on the processing

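Counts below are of the 9 genes. Without a filter on low counts, calls went to 2 with EGFhigh at 6 h (from 0), 5 with EGFhigh at 72 h, 2 for EGFhigh against EGFlow and 4 for EGFhigh plus EpEX against EGFhigh at 72 h, 4 for untreated cells at 72 h against 6 h, and 2 for the 72 h minus 6 h effect in Kyse30. Calls over all genes rose as well, from 391 to 581 with EGFhigh at 6 h and from 951 to 1115 with EGFhigh at 72 h. In FaDu, calls among the 9 genes went to 6 with EGFhigh and 6 with EpEX at 6 h, 1 with EGFhigh plus EpEX at 72 h, and 3 for Fc at 72 h against 6 h, and between lines to 1 for EGFlow and 1 for EpEX. Calls over all genes are not given beside these counts, which are therefore no result about the 9 genes. EGFhigh at 6 h in Kyse30 gave 1 call each with a mean of at least 5 CPM, the replicate block, DESeq2, pooled controls, and only the groups compared. Fitting only the groups compared gave 0 calls for EGFhigh plus EpEX against EGFhigh at 72 h and 1 for the 72 h minus 6 h effect. EGFhigh plus EpEX at 72 h in FaDu gave 1 call with the replicate block, DESeq2, or only the groups compared.

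With all 41 FaDu libraries, calls fell to 0 with EGFlow, EGFhigh, and EpEX at 6 h and for Fc over time. Signs turned for EGFR (-0.45) and IER3 (-0.068) with EGFlow, DUSP4 (-0.94), AREG (-1.85), and TGFA (-0.14) with EpEX, PHLDA1 (-0.35) with EGFhigh plus EpEX at 72 h, ERRFI1 (0.43) for Fc over time, and AREG (-2.67) between lines for EpEX. The cause was not tested. Leaving out 1 library gave 1 to 3 calls with EGFhigh at 72 h, 0 to 1 against EGFlow, 0 to 1 for EGFhigh plus EpEX against EGFhigh, and 1 to 2 for untreated cells over time. In FaDu it gave 0 to 3 with EGFlow and EGFhigh, 1 to 3 with EpEX, and 0 to 1 for Fc over time. It was not run between lines.

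Replicate numbers were not used to pair libraries in the main tests. Deviations of same-numbered libraries had a mean r of 0.06 (lowest -0.13) in Kyse30 and 0.07 (lowest -0.04) in FaDu. For libraries with different numbers the mean r was -0.02 and -0.07. In Kyse30 38 of 43 and in FaDu 14 of 14 libraries correlated best with their own number. Each FaDu group used here held 2 libraries, whose deviations are exact opposites. The -0.07 in FaDu therefore follows from the 0.07, and both libraries of a group must score alike. Together these values are a hint of shared variation by number, from the data only. With the replicate block, EGFhigh at 72 h in Kyse30 still gave 3 calls, but DUSP1 lost its call (-1.34, adjusted p = 0.0664) and SPRY4 gained one (1.90, 0.0464), as they did with DESeq2 (0.0523 and 0.0352), and EGFhigh plus EpEX against EGFhigh at 72 h gave 1 call and Fc over time in FaDu 2. Over all genes, EGFhigh at 6 h in Kyse30 gave 391 calls, 636 with the block, 701 with DESeq2, and 1105 with pooled controls. EpEX at 6 h gave 4, 48, 88, and 106, and EGFlow 230, 417, 423, and 776. EGFhigh plus EpEX at 6 h gave 694, 1091, 1136, and 1042, and 209 with only the groups compared. EGFhigh plus EpEX against EGFhigh at 72 h gave 550, and 194 with only the groups compared. Of values of called genes, 104 of 121 kept their call over the settings other than leaving out 1 library, and 41 of 89 when 1 library was left out. Depth limits SPRY4 most.

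Over all genes, other counts also moved by over 1.5 times. Without a filter, EGFlow at 6 h gave 399, EpEX at 6 h 105, untreated cells over time 407, the 72 h minus 6 h effect 401 (155 as reported), and comparisons with 0 calls gave 1 to 13. With only the groups compared, EGFlow at 6 h gave 359, EpEX at 6 h 9, EGFhigh at 72 h 502 (951), EGFhigh against EGFlow at 72 h 241 (573), and untreated cells over time 433 (238). DESeq2 gave 853 for EGFhigh plus EpEX against EGFhigh at 72 h, 477 for untreated cells over time, and 310 for the 72 h minus 6 h effect. The block gave 410 for untreated cells over time, pooled controls 1628 for EGFhigh and 5 for EpEX at 72 h, and a mean of at least 5 CPM 17 for EpEX at 6 h. In FaDu, only the groups compared gave 272 for EGFhigh (491) and 232 for EpEX (560). EGFhigh plus EpEX at 72 h (131) gave 212 to 316 and Fc over time (462) 696 to 803 in settings that moved them up. All 41 libraries gave 0 in each FaDu comparison with calls, and 0 to 2 between lines, where 12 to 25 were called and other settings gave up to 97.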
